A study of Mus musculus with 2 samples.

Results

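BMP target genes were followed across the whole culture series of XX and XY foetal mouse germ cells: *Id1*, *Id2*, *Id3*, *Id4*, *Msx1*, *Msx2*, *Gata2*, *Smad6* and *Smad7*, together with *Zglp1*. Members were found by matching Ensembl identifiers to these 10 symbols, and 9 of the 10, of 42422 genes in all, were measured. All 9 passed the filter on low counts. On GRCm39, *Id1* lies at chr2:152566218-152579544 and *Gata2* at chr6:88170559-88184018, both on the plus strand. *Id1*, *Id2*, *Id3*, *Id4* and *Gata2* overlap exons of long non-coding RNAs on the opposite strand, and the authors' code counted reads by strand. *Zglp1*, a GATA-like zinc finger gene, was not analysed here, and its promoter alone is described.

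Bone morphogenetic proteins (BMPs) are secreted ligands that bind paired type I and type II receptors, whose kinases phosphorylate SMAD1, SMAD5 and SMAD9. With SMAD4 these enter the nucleus and bind regulatory DNA. The *Id* genes are the classical direct targets. In the foetal ovary, BMP2 from somatic cells is known to promote the female fate of germ cells, with *Zglp1*, *Gata2*, *Msx1* and *Msx2* among the genes tied to that response, and *Smad6* and *Smad7* encode inhibitory SMADs that limit the pathway.

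Gonads with mesonephros were taken at E12.5 (embryonic days), from wild-type embryos of Swiss mice crossed to an *Oct4*-eGFP reporter line on a 129svJT2 background. The reporter was used to sort germ cells in every group, and the labels give the genotype of all groups as WT. XX germ cells were collected before culture (0 h) or following 24 h or 72 h with the vehicle DMSO. XY germ cells were collected before culture or following 24 h or 72 h with DMSO, with 500 nM BGJ398, an inhibitor of FGF receptors (FGFRi), or with 500 nM PD0325901, an inhibitor of MEK1/2 (MEKi). There were 10 groups of 4 libraries, each library from several pooled gonads, with GFP-positive cells sorted after removal of the mesonephros. No XX gonads with inhibitor were among the groups, and culture exposed germ cells and somatic cells alike to each drug. Because sorted cells were pooled, fewer cells of a type and less RNA per cell cannot be told apart.

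Libraries held 1178953 to 5199153 counts of unique molecules (median 2135128.5), of which 99.2% fell in the 15252 genes tested. Levels are given in CPM (counts per 1e6 counts) on TMM-scaled library sizes. Since reads came from the 3′ end of transcripts, levels of the members are compared between groups and not between genes. Marker sums of different cell types are set side by side only as a rough guide. A gene was called when the limma treat test rejected a change of 1.5-fold or less at a false discovery rate (FDR) under 0.05 over all 15252 genes. Libraries were made in 2 pools of 20. The 24 h FGFRi group and all 72 h groups were in the second pool and the other groups in the first, so comparisons across that line cannot be told apart from the pool. In addition, 16 pairs of libraries, 1 from each pool, shared a sample index. The 72 h FGFRi libraries were paired with XX 24 h DMSO libraries, the 72 h MEKi libraries with XY 24 h DMSO libraries, and the XX and XY 72 h DMSO libraries with those of their own sex at 0 h.

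The labelled cell type was checked against its markers. The summed level of 8 germ cell markers (*Ddx4*, *Dazl*, *Pou5f1*, *Dppa3*, *Dnd1*, *Nanos3*, *Tfap2c* and *Kit*) was between 1810 and 5760 CPM in every library. Summed markers of somatic types were low beside it. Across all 40 libraries, 6 Sertoli cell markers summed to between 4.39 and 107 CPM, and *Amh* had no count in 5 of the 10 groups. The 5 endothelial markers summed to at most 24.2 CPM and the 7 stromal markers to at most 334 CPM. The 5 markers of granulosa and ovarian supporting cells reached 54.1 CPM, the 5 Leydig markers 32.1 CPM with *Insl3* at 0 in every group, the 5 markers of coelomic epithelium and mesonephros 44.4 CPM, and the 7 blood markers 438 CPM.

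RefSeq promoters (build GRCm38.p6, 250 bases before to 50 after each start) were matched for 8 of the 10 symbols, with 2 starts for *Gata2*. *Id1* and *Smad7* had no entry. Shown 5′ to 3′ are those of *Id2* and *Id4*, which share boxes but moved apart, of *Id3* and *Gata2*, which changed widely by sex and time, and of *Smad6*, which holds the rarest motif searched. Capitals mark the GC-rich boxes GGCGCC and GGAGCC, of the kind bound by BMP SMADs, and the SMAD palindrome GTCTAGAC. Each was searched on both strands, and a box on the other strand appears as GGCTCC.
Id2, chr12:25096043-25096342, minus strand: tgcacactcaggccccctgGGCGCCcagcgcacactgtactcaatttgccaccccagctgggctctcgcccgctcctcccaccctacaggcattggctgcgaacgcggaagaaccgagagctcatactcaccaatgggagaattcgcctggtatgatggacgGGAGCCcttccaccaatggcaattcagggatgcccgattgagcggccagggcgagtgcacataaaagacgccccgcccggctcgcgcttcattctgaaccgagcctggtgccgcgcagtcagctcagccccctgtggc
Id3, chr4:136143572-136143871, plus strand: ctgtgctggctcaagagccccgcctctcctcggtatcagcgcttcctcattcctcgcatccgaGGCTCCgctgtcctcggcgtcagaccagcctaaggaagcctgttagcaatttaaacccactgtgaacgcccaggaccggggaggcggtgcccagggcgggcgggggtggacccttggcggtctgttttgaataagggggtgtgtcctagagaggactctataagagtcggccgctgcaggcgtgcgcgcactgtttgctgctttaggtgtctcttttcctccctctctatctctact
Id4, chr13:48260866-48261165, plus strand: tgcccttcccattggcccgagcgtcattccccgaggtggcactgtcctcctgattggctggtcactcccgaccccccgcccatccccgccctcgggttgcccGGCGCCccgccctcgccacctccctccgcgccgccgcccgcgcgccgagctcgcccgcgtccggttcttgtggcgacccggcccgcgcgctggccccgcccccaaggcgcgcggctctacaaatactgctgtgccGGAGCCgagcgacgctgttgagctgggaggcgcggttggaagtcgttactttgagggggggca
Gata2, downstream start, chr6:88198414-88198713, plus strand: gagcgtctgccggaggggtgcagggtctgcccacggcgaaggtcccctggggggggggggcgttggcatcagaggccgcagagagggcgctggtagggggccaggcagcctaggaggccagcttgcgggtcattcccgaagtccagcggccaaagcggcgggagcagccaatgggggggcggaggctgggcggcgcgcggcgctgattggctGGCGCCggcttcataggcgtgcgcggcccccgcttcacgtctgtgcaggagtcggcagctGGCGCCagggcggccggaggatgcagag
Smad6, chr9:64022010-64022309, minus strand: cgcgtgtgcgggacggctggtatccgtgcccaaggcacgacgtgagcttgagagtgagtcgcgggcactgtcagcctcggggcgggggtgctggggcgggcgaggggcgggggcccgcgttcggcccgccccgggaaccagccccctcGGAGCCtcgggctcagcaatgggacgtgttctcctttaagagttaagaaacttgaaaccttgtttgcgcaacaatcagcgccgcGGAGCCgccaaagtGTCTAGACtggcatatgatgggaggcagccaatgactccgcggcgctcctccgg

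GGCGCC lay in the promoters of *Id2*, *Id4* and *Zglp1* and at the downstream start of *Gata2*, which held 2 matches, and in 11.9% of all 32851 promoters of this length. GGAGCC or its reverse GGCTCC lay in those of *Id2*, *Id3*, *Id4*, *Msx1*, *Msx2*, *Zglp1* and *Smad6* and in 30.8% of all. The palindrome GTCTAGAC lay in the *Smad6* promoter, starting 4 bases before the start, and in 0.213% of all. No matches overlapped. The *Id4* promoter held the same 2 boxes as that of *Id2*, although their transcripts moved differently.

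Whether BMP targets already differed by sex before culture was read at 0 h. Of the 9 members, 7 had lower levels in XY and none had higher levels, beside 3% of all genes called in either direction. The paper had already named *Id1*, *Id2*, *Id3*, *Msx1*, *Msx2* and *Gata2* as higher in XX at this time, from the same libraries. This count is therefore not independent of that report. It also named *Id1*, *Id2*, *Id3* and *Msx1* as higher in XX after culture in DMSO. *Id1* stood at 148, 224, 172 and 185 CPM in the XX libraries and at 8.78, 8.30, 5.35 and 9.41 CPM in the XY libraries. The groups were far apart, and *Id1* was 21.8-fold lower in XY (log2 -4.45 ± 0.26 SE, limma treat FDR = 1.38e-17). *Gata2*, a zinc finger transcription factor, was at 140, 142, 156 and 174 CPM in XX against 5.70, 10.6, 13.4 and 5.49 CPM in XY. It too was separated without overlap and was 18.5-fold lower in XY (log2 -4.21 ± 0.28, FDR = 1.47e-15).

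The homeobox genes followed. *Msx1* averaged 35.3 ± 6.91 CPM (SD, n = 4) in XX and 3 ± 1.11 CPM in XY, 11.6-fold lower. *Msx2* averaged 21.4 ± 5.05 CPM in XX and 2.74 ± 1.49 CPM in XY, 8.76-fold lower. The other *Id* genes, whose products bind E proteins and keep them from DNA, were also lower in XY. *Id2* averaged 63.3 ± 6.39 CPM in XX and 12.3 ± 5.69 CPM in XY. *Id3* was at 283, 377, 303 and 270 CPM in XX and at 110, 118, 52.6 and 85.8 CPM in XY, 3.24-fold lower. *Id4* averaged 78.6 ± 8.86 CPM in XX and 26.2 ± 4.12 CPM in XY, 2.92-fold lower.

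The inhibitory SMADs were not called at 0 h, although neither overlapped between the sexes. *Smad6* averaged 22 ± 3 CPM in XX and 11.8 ± 2.52 CPM in XY (log2 XY less XX -0.80, 95% interval -1.22 to -0.39). *Smad7* pointed the other way, at 27.3, 25.5, 30.6 and 23.4 CPM in XX and at 48.7, 49.5, 41.0 and 37.6 CPM in XY (log2 0.76, 95% interval 0.48 to 1.05). Both intervals lay on 1 side of no change and neither cleared the 1.5-fold bound. Summed endothelial markers were 1.40 to 3.07 CPM in XX and 3.53 to 7.46 CPM in XY, and stromal markers 40.1 to 85.3 CPM in XX and 123 to 334 CPM in XY. Markers of granulosa and ovarian supporting cells were 15.9 to 24.3 CPM in XX and 10.5 to 16 CPM in XY, with a median log2 difference of -1.07 over the 5 markers and none of them called, and markers of coelomic epithelium and mesonephros 9.47 to 24.5 CPM and 8.62 to 20.5 CPM. The stromal and endothelial sums were thus lower in XX, and the means of the other pair were higher in XX, as the 7 called members were. Their part in the result was not tested.

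**Figure D1:**
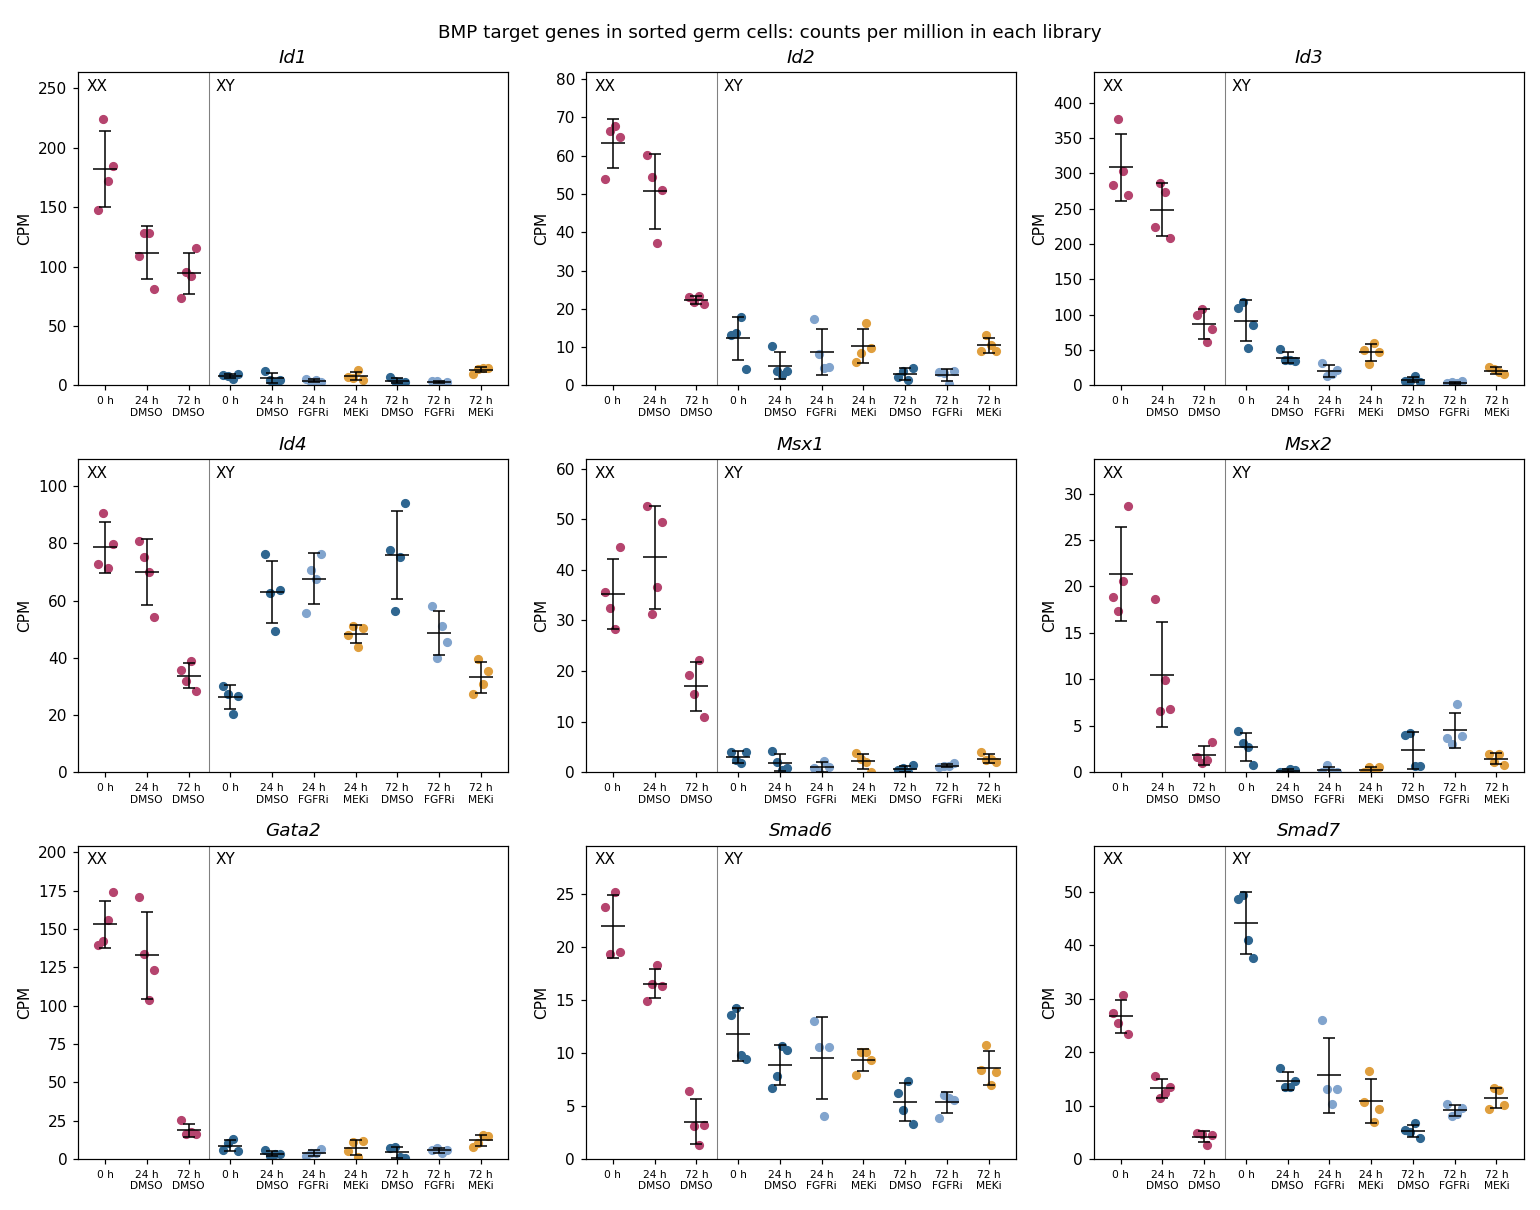
CPM (y axis, linear, a separate scale per gene) of the 9 measured members in each of the 40 libraries, grouped by sex, culture time and treatment (x axis); points are libraries and bars the mean ± SD of 4. Every XX library lies above every XY library for *Id1* and *Msx1*, and *Gata2* is at 133 to 153 CPM on average in XX until 24 h and at 18.8 CPM at 72 h, while *Id4* in XY rises between 0 h and 24 h and *Smad7* starts higher in XY.

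After 24 h in DMSO, 6 of the 9 members were lower in XY, with 9.99% of all genes called. *Gata2* was at 171, 134, 104 and 123 CPM in XX and at 5.70, 2.08, 3.44 and 2.98 CPM in XY, 37.6-fold lower (log2 -5.23 ± 0.41, FDR = 3.81e-13). The XY level rested on 36 counts over the 4 libraries, of which 14 were left with an upper estimate of the index partner's share taken off. *Msx1* was 31.6-fold, *Id1* 20.1-fold, *Id2* 11.4-fold and *Id3* 6.35-fold lower. *Msx2* had 111 counts over the 4 XX libraries and 2 over the 4 XY libraries, a ratio of 58.9 with an exact 95% counting interval of 15.9 to 492. *Id4* no longer separated the sexes, with 70.1 ± 11.4 CPM in XX and 63.0 ± 10.9 CPM in XY (95% interval of the log2 difference -0.41 to 0.18). *Smad6* was at 16.5 ± 1.39 CPM in XX and 8.87 ± 1.90 CPM in XY without overlap and was not called, and *Smad7* overlapped. Summed Sertoli markers were 4.39 to 14.4 CPM in XX and 17.5 to 107 CPM in XY, stromal markers 26.1 to 44.1 CPM and 41.9 to 69.5 CPM, and markers of granulosa and ovarian supporting cells 16.5 to 23 CPM and 20.6 to 39.4 CPM. Their part in the result was not tested.

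After 72 h in DMSO, 5 members were lower and 1 was higher in XY. This count stood beside 41.0% of all genes called, so 6 of 9 was nearer to the background than at the earlier times. *Id1* was at 73.3, 95.5, 92.3 and 116 CPM in XX and at 6.71, 3.76, 2.66 and 2.65 CPM in XY, 22.3-fold lower (log2 -4.48 ± 0.38, FDR = 5.11e-13). *Msx1* was 20.7-fold, *Id3* 11.6-fold, *Id2* 7.62-fold and *Gata2* 5.28-fold lower in XY. With an upper estimate of the index partner's share taken off, the *Gata2* call was lost (log2 -1.82, FDR = 0.0754). That removal left 5 of 59 counts of *Id3* and 11 of 23 of *Id2* in XY. The *Id3* difference was -3.53 on the log2 scale and went as low as -7.05 under the other settings, so its size is uncertain. *Id4* had crossed over, at 35.9, 32, 38.8 and 28.5 CPM in XX and at 77.9, 56.4, 75.2 and 94.2 CPM in XY, 2.24-fold higher (log2 1.16 ± 0.18, FDR = 0.00328). *Msx2*, *Smad6* and *Smad7* overlapped between the sexes at this time. Summed endothelial markers were 0 to 3.21 CPM in XX and 12.6 to 24.2 CPM in XY, and stromal markers 102 to 182 CPM and 128 to 268 CPM. Other sums overlapped with higher means in XX, as the 5 lower members had. Sertoli markers averaged 37.1 CPM in XX and 28.2 CPM in XY, Leydig markers 27.2 and 20.7 CPM. Markers of granulosa and ovarian supporting cells averaged 36.7 and 32.6 CPM. Their part in the result was not tested.

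**Figure D2:**
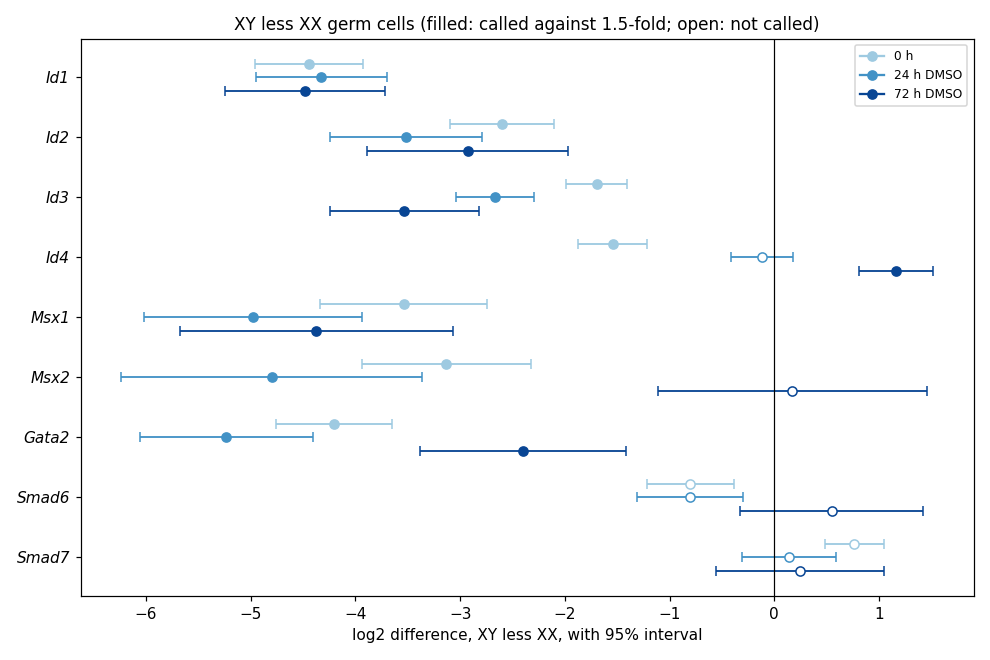
Log2 difference of XY less XX germ cells (x axis) for each member (y axis) before culture and with 24 h or 72 h of DMSO, with 95% intervals; filled points were called against 1.5-fold and open points were not. *Id1* stays near the same difference at all 3 times, *Gata2* and *Msx2* move back towards 0 between 24 h and 72 h, and *Id4* crosses from lower to higher in XY.

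Changes of the sex difference with time were tested directly. Between 0 h and 24 h *Id4* was called and the other 8 were not (0.452% of all genes), its XY-less-XX difference rising by 1.43 ± 0.22 on the log2 scale (FDR = 0.0400). The call was at the edge of the threshold and was lost without any 1 of 9 libraries: XX 0 h replicates 3 and 5, XY 0 h replicates 3, 5 and 6, XX 24 h replicate 9 and XY 24 h replicates 2, 3 and 5 (FDR up to 0.150). Between 24 h and 72 h, 3 members were called, beside 26.1% of all genes, and all 3 differences shifted upwards in XY relative to XX. *Msx2* shifted by 4.97 ± 0.96, *Gata2* by 2.83 ± 0.64 (FDR = 0.00320) and *Id4* by 1.28 ± 0.23 (FDR = 0.0106). For *Msx2* this rests on 2 counts in the XY 24 h libraries. For *Id1* the shift was -0.16 ± 0.49 and was not called. This second comparison spans both pools.

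Within XX germ cells, no member was called between 0 h and 24 h in DMSO (3.23% of all genes). By the treat test 2 of the 9, *Msx2* and *Smad7*, had an unadjusted p under 0.05, and edgeR and DESeq2 called none either. *Id1* went from 182 ± 32.1 to 112 ± 22.3 CPM without overlap (95% interval of the log2 change -1.03 to -0.53). *Smad7* went from 26.7 ± 3.07 to 13.2 ± 1.81 CPM, also without overlap. Over the same interval all 8 genes of a meiotic and oogenic list were called higher in XX, among them *Sycp3*, a protein of the chromosome axis, and *Figla*, a transcription factor of oocytes.

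Between 24 h and 72 h in XX, 8 of the 9 members fell, beside 22.2% of all genes called. *Gata2* had the largest fitted fall, from 171, 134, 104 and 123 CPM to 25.2, 16.5, 17.4 and 16.2 CPM (7.01-fold, FDR = 7.66e-11). Of its 130 counts at 72 h, 60 were left with an upper estimate of the index partner's share taken off. *Msx2* went from 10.5 ± 5.66 to 1.80 ± 0.98 CPM, on 111 and 12 counts. Its ratio was 6.43 with an exact 95% counting interval of 3.54 to 12.8, so the 2 falls are not ranked apart. *Smad6* fell 4.36-fold to 3.52 ± 2.12 CPM, and *Smad7* 2.93-fold to 4.17 ± 1.00 CPM. *Id3* fell 2.74-fold, *Msx1* 2.67-fold, *Id2* 2.31-fold and *Id4* 2.07-fold. *Id1* alone was not called, at 112 ± 22.3 and 94.2 ± 17.4 CPM with overlap (95% interval of the log2 change -0.48 to 0.10). The count was sensitive: without XX 72 h DMSO replicate 8 the test called 4 members, with *Id2*, *Id4*, *Msx1* and *Smad7* lost. DESeq2 called 5, beside 3032 of 15252 genes. The median over all genes moved by -0.102 here, against -1.45 over the members. Summed stromal markers went from 26.1 to 44.1 CPM at 24 h to 102 to 182 CPM at 72 h, and summed germ cell markers from 2650 to 3270 CPM to 1810 to 2050 CPM. Effects of time and of pool cannot be told apart here.

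Within XY germ cells, 3 members were called between 0 h and 24 h (2.94% of all genes). *Smad7* fell 3.02-fold, from 48.7, 49.5, 41.0 and 37.6 CPM to 17.1, 13.5, 13.4 and 14.6 CPM (FDR = 3.81e-05). *Id3* fell 2.46-fold, from 91.5 ± 29.3 to 39.4 ± 8.01 CPM. *Id4* rose 2.34-fold, from 30.3, 27.5, 20.5 and 26.7 CPM to 76.2, 62.5, 49.5 and 63.8 CPM (FDR = 0.0109). The *Id3* call was lost without XY 0 h replicate 2 or 3 or XY 24 h replicate 4 or 5 (FDR up to 0.321) and the *Id4* call without XY 0 h replicate 3 (FDR = 0.0606), where 1 call remained. *Id1*, *Id2*, *Msx1* and *Gata2* were already low and overlapped between the times. *Msx2* went from 27 counts to 2 (ratio 14.4, exact 95% counting interval 3.62 to 125) and was not called (FDR = 0.0702). EdgeR called it lower (FDR = 0.00582) and DESeq2 did not. The limma test also called it with no filter (FDR = 0.0246) and without XY 0 h replicate 6 (FDR = 0.0174). Summed stromal markers were lower at 24 h, as *Smad7* and *Id3* were, going from 123 to 334 CPM at 0 h to 41.9 to 69.5 CPM at 24 h without overlap, and 1 of the 7, *Col1a2*, was called lower. Their part in the result was not tested.

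From 24 h to 72 h in XY, 3 members were called beside 27.3% of all genes, so this share was close to the background. *Id3* fell 4.99-fold further to 8.01 ± 3.60 CPM and *Smad7* 2.72-fold to 5.26 ± 1.10 CPM. These 72 h levels rested on 59 and 40 counts, 6.01% and 9.01% of the counts in the XY 0 h index partners. With an upper estimate of the partners' share taken off, 5 and 6 counts were left. Under the other settings the log2 changes went as low as -6.19 and -4.19, so the size of both falls is uncertain. *Msx2* rose, from 2 counts over the group to 21, a ratio of 14.4 with an exact 95% counting interval of 3.51 to 126. Its 72 h values split into 4.03 and 4.18 CPM in replicates 2 and 4 and 0.666 and 0.664 CPM in replicates 5 and 6. The call was lost when XY 24 h replicate 2 or XY 72 h replicate 2 or 4 was left out. *Gata2* was split in the same libraries, at 7.16 and 7.94 CPM against 1.33 and 0.664 CPM. Somatic markers were also higher at 72 h. Stromal markers went from 41.9 to 69.5 CPM to 128 to 268 CPM, with 5 of 7 called higher, endothelial markers from 1.38 to 3.63 CPM to 12.6 to 24.2 CPM, with *Cdh5* called, and markers of coelomic epithelium and mesonephros from 10.3 to 19.2 CPM to 28.4 to 34.5 CPM. Their part in the result was not tested. The pools again coincide with the times.

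Whether inhibition of FGF receptors or of MEK1/2 altered BMP targets in XY germ cells was tested at both times. After 24 h no member was called with either inhibitor. With MEKi, 0.164% of all genes and 0 of the 9 were called, none had an unadjusted p under 0.05 by the treat test, and edgeR and DESeq2 called 0. *Id2* was at 6.04, 8.5, 16.4 and 9.86 CPM with MEKi and at 10.4, 3.65, 2.75 and 3.79 CPM with DMSO (95% interval of the log2 difference 0.20 to 1.92). *Id1* was at 7.72 ± 3.55 and 5.93 ± 4.09 CPM, and *Gata2* at 7.45 ± 4.76 and 3.55 ± 1.54 CPM. All 9 overlapped. Of the meiotic list, *Stra8*, a gene needed to enter meiosis, was called higher with MEKi at this time (479 against 106 CPM). Summed blood markers were 159 to 438 CPM with MEKi and 27.5 to 114 CPM with DMSO, and stromal markers 92 to 124 CPM and 41.9 to 69.5 CPM. Neither sum overlapped, and their part in the result was not tested.

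With FGFRi at 24 h, 0.262% of all genes and 0 members were called, none with an unadjusted p under 0.05, and edgeR and DESeq2 called 0. *Id3* did not overlap, at 31.3, 13.0, 15.5 and 22.2 CPM with FGFRi and at 51.3, 35.4, 36.4 and 34.4 CPM with DMSO (95% interval of the log2 difference -1.57 to -0.42). FGFRi libraries of this time were in the other pool from their DMSO libraries.

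After 72 h of MEKi, 3 of the 9 members were called, 2 higher and 1 lower, with 9.12% of all genes called. *Id1* was at 6.71, 3.76, 2.66 and 2.65 CPM with DMSO and at 9.93, 14.2, 14.3 and 14.5 CPM with MEKi. Every MEKi library was above every DMSO library, and *Id1* was 3.31-fold higher (log2 1.73 ± 0.40, FDR = 0.0346). *Id2* was at 2.24, 3.76, 1.33 and 4.65 CPM with DMSO and at 8.93, 13.2, 10.5 and 9.01 CPM with MEKi, 3.70-fold higher (log2 1.89 ± 0.47, FDR = 0.0442). *Id4* went against them, from 77.9, 56.4, 75.2 and 94.2 CPM to 27.3, 39.8, 30.7 and 35.3 CPM, 2.22-fold lower (log2 -1.15 ± 0.14, FDR = 0.00244).

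Other members lay in the same direction as *Id1* without passing. *Gata2* was at 7.16, 7.94, 1.33 and 0.664 CPM with DMSO and at 7.94, 10.4, 15.7 and 14.9 CPM with MEKi (log2 1.85 ± 0.47, FDR = 0.0524). *Id3* was at 8.01 ± 3.60 and 21.0 ± 4.33 CPM without overlap (FDR = 0.125). *Smad7* was at 5.26 ± 1.10 and 11.4 ± 1.91 CPM without overlap (FDR = 0.178). *Msx1* was at 0.653 ± 0.565 and 2.71 ± 0.879 CPM, on 5 and 39 counts over the groups (FDR = 0.285). *Smad6* and *Msx2* overlapped. In all, 6 of 9 members did not overlap between the groups, a share that was not computed over all genes. With no fold bound in the test 7 members were called, 6 of them higher, beside 6984 of all 15252 genes.

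The calls near the threshold depended on single libraries and on the test. The *Id1* call was lost without DMSO replicate 4, 5 or 6 or MEKi replicate 3 or 4 (FDR up to 0.104) and that of *Id2* without DMSO replicate 2, 4 or 5 or MEKi replicate 3 or 4 (FDR up to 0.171). *Gata2* passed without DMSO replicate 2 or 4 or MEKi replicate 2 or 3 (FDR from 0.0328). In all, 1 call remained without XY 72 h DMSO replicate 5 or XY 72 h MEKi replicate 4. With edgeR 5 members were called, beside 1866 of 15252 genes. With no filter on low counts none was, beside 1017 of 40820 genes. The index partners of the MEKi libraries, XY 24 h DMSO, held 57 counts of *Id1*, 49 of *Id2* and 36 of *Gata2*, fewer than the 208, 168 and 191 counts in the MEKi libraries themselves. They held more *Id4* (647 against 522 counts) and more *Id3* (400 against 318). Taking off an upper estimate of the partners' share left 280 counts of *Id4* and 166 of *Id3* in the MEKi libraries. With that share taken off in all libraries, 6 members were called, beside 1728 of 15326 genes. *Id3* (log2 4.76), *Smad7* (3.90) and *Gata2* (2.69) were the calls gained. In the XY 72 h DMSO libraries only 5 of 59 counts of *Id3* and 6 of 40 of *Smad7* were then left, so these 2 sizes rest on few counts. Summed endothelial markers were 12.6 to 24.2 CPM with DMSO and 0.496 to 7.73 CPM with MEKi, and markers of coelomic epithelium and mesonephros 28.4 to 34.5 and 11.9 to 19.3 CPM, both lower with MEKi, as *Id4* was. Stromal markers were 128 to 268 and 90.1 to 216 CPM, and Sertoli markers 24.0 to 35.8 and 21.8 to 71.4 CPM. The part of these markers in the result was not tested.

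**Figure D3:**
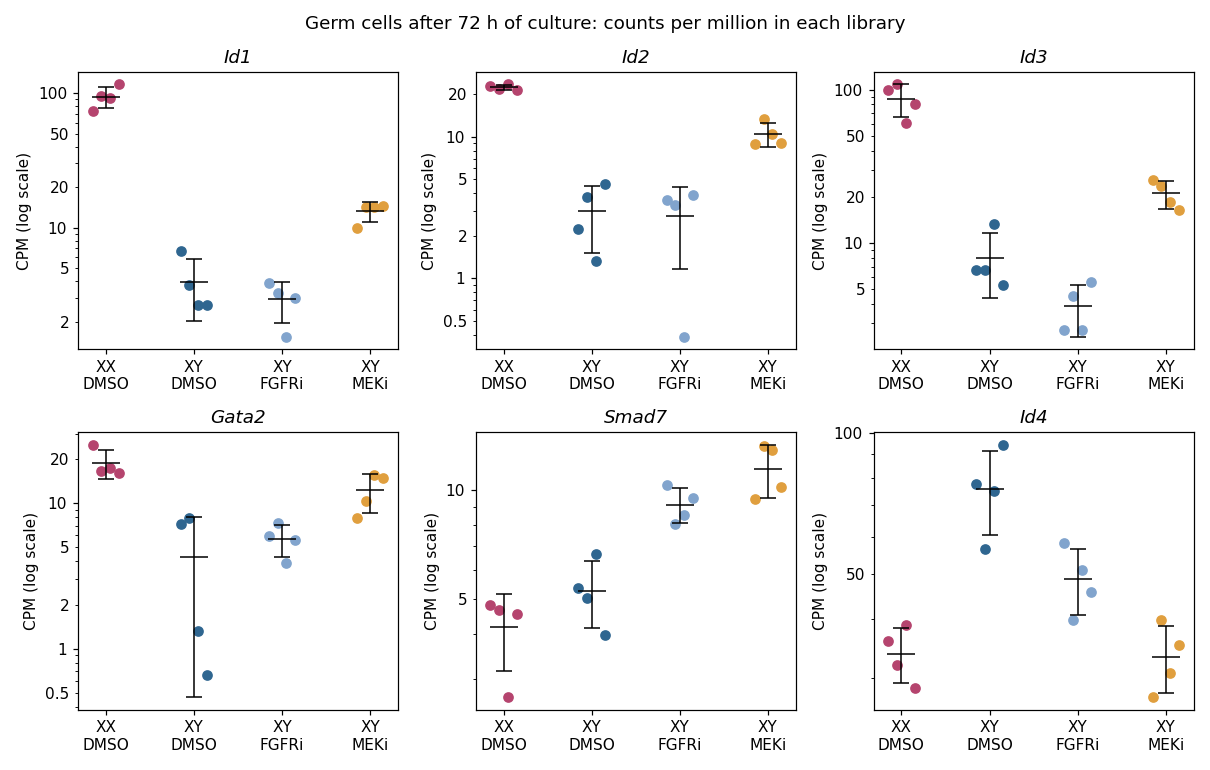
CPM (log y axis) of 6 members in each library after 72 h of culture, for XX DMSO and for XY with DMSO, FGFRi or MEKi (x axis); points are libraries and bars the mean ± SD of 4. The MEKi libraries lie above the XY DMSO libraries for *Id1*, *Id2*, *Id3* and *Smad7* and below them for *Id4*, and they lie below the XX libraries for *Id1*, *Id2* and *Id3*.

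With FGFRi for 72 h, 0.00656% of all genes (1 gene) and 0 members were called, none of them with an unadjusted p under 0.05, and edgeR and DESeq2 called 0. *Id1* was at 3.89, 3.28, 1.55 and 3.02 CPM with FGFRi. *Smad7* did not overlap, at 10.3, 8.08, 8.51 and 9.48 CPM with FGFRi and at 5.37, 5.02, 6.66 and 3.98 CPM with DMSO (95% interval of the log2 difference 0.18 to 1.37). *Id4* was at 48.7 ± 7.81 CPM with FGFRi and 75.9 ± 15.5 CPM with DMSO, with overlap (95% interval -0.87 to -0.32). Summed stromal markers were 62.1 to 89.2 CPM with FGFRi and 128 to 268 CPM with DMSO, without overlap. The sums of the other somatic types overlapped. Their part in the result was not tested. The 47 counts of *Id1*, 44 of *Id2*, 54 of *Id3*, 18 of *Msx1* and 87 of *Gata2* in the FGFRi libraries were 4.34%, 8.61%, 2.25%, 4.16% and 6.44% of the counts in the XX 24 h libraries that carried the same indexes. Removing an upper estimate of the partners' share in all libraries left 0 counts of each of these 5 genes. Then 2 members were called, *Id1* lower and *Smad7* higher, beside 80 of 15326 genes. The *Id1* call follows from the removal itself. The *Smad7* call rested on DMSO libraries cut from 40 counts to 6. With a stricter share of 0.577% to 13.9% of the partner, chosen after seeing the data, *Id1* and *Id3* were called lower with FGFRi. Both again had 0 counts left there, and 5 of 15290 genes were called.

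The inhibitors were compared with each other once, at the same dose and time in the same pool. After 72 h, 3 members were higher with MEKi than with FGFRi (12.7% of all genes). *Id3* was 5.66-fold (log2 2.5 ± 0.38, FDR = 9.71e-05), *Id1* 4.22-fold (FDR = 0.000872) and *Id2* 3.95-fold higher (FDR = 0.00771). *Smad7* overlapped between the inhibitors, at 11.4 ± 1.91 and 9.10 ± 1.01 CPM (95% interval of the log2 difference -0.01 to 0.79). *Id4* did not overlap, at 33.3 ± 5.42 CPM with MEKi and 48.7 ± 7.81 CPM with FGFRi, and was not called. *Msx2* was also lower with MEKi without overlap, at 1.46 ± 0.62 against 4.49 ± 1.94 CPM (log2 -1.35). The limma test did not call it (FDR = 0.260), and edgeR called it lower (FDR = 0.0393). For *Id1*, *Id2* and *Id3* the FGFRi level cannot be told apart from carry-over of the XX index partners, and with its upper estimate taken off the *Id2* difference was 6.36 on the log2 scale against 1.98 as deposited. Summed stromal markers were 90.1 to 216 CPM with MEKi and 62.1 to 89.2 CPM with FGFRi, and endothelial markers 0.496 to 7.73 CPM and 11.6 to 17.4 CPM. Their part in the result was not tested.

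**Figure D4:**
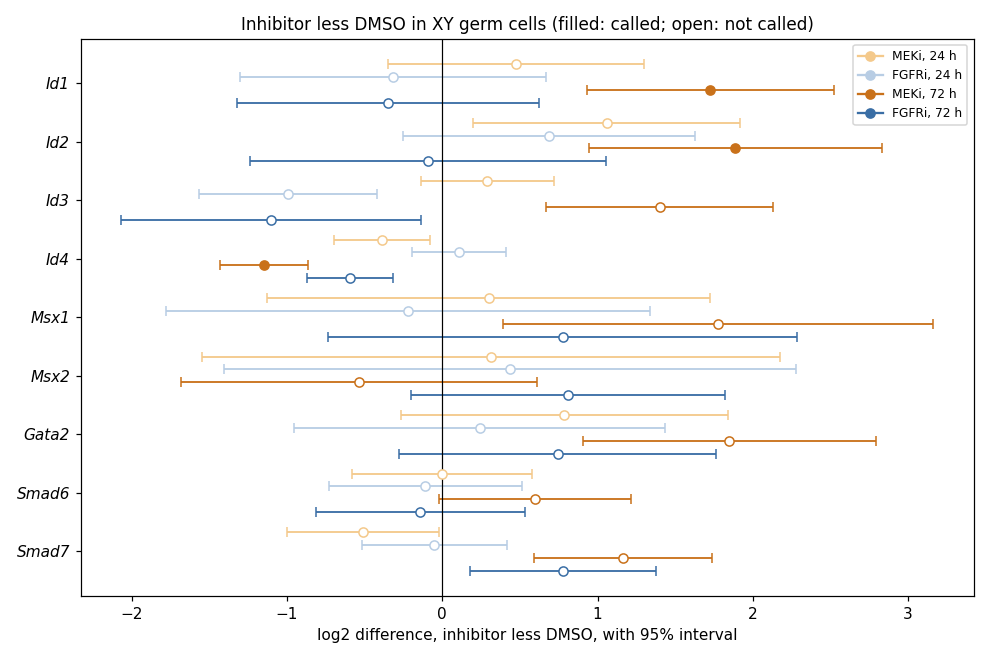
Log2 difference of inhibitor less DMSO in XY germ cells (x axis) for each member (y axis) with MEKi or FGFRi for 24 h or 72 h, with 95% intervals; filled points were called against 1.5-fold and open points were not. Called points are those of MEKi at 72 h for *Id1*, *Id2* and *Id4*.

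The MEKi effect was not called as different between 24 h and 72 h for any member (1.88% of all genes), and 1 member, *Smad7*, had an unadjusted p under 0.05. Its MEKi difference rose from -0.51 to 1.16 on the log2 scale (change 1.67 ± 0.38, FDR = 0.100). EdgeR called it, and DESeq2 called no member. The *Id1* call at 72 h is therefore not shown to differ from the absence of a call at 24 h.

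XY germ cells with MEKi were then set against XX germ cells with DMSO. After 24 h, 6 of the 9 members were lower in XY MEKi cells (8.62% of all genes), among them *Msx1* (25.7-fold, on 17 counts over the XY MEKi libraries), *Gata2* (21.8-fold, on 57) and *Id1* (14.4-fold, on 60). After 72 h, 3 were lower and 1 was higher (30.0% of all genes). *Id1* remained 6.75-fold lower (log2 -2.75 ± 0.19, FDR = 1.16e-14), *Msx1* 6.06-fold and *Id3* 4.39-fold lower. *Id2*, at 22.4 ± 1.01 CPM in XX and 10.4 ± 2.02 CPM in XY MEKi, did not overlap and was not called (95% interval of the log2 difference -1.58 to -0.51). *Gata2* was at 18.8 ± 4.26 and 12.2 ± 3.68 CPM, after its fall in XX. *Id4* was at 33.8 ± 4.51 and 33.3 ± 5.42 CPM (95% interval -0.35 to 0.37). *Smad7* was 2.66-fold higher in XY MEKi cells (FDR = 0.0296), a call lost without XX 72 h replicate 4, 7 or 8 or MEKi replicate 3 or 4 (FDR up to 0.0838).

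Ordered by level, each gene had its own ranking of groups. *Id1* was highest in XX 0 h, then XX 24 h and XX 72 h, the last pair overlapping, followed by XY 72 h MEKi at 13.2 ± 2.19 CPM and then by the other XY groups between 2.93 and 7.96 CPM, which overlapped with their neighbours. *Id3* ran from XX 0 h (308 ± 48.0 CPM) through XX 24 h (248 ± 37.6 CPM), with overlap, to XY 0 h (91.5 ± 29.3 CPM) and XX 72 h (87.0 ± 20.9 CPM), which also overlapped, and down to XY 72 h FGFRi at 3.89 ± 1.43 CPM. *Gata2* was highest in XX 0 h and XX 24 h, then XX 72 h and XY 72 h MEKi, and the lowest mean was that of XY 24 h DMSO at 3.55 ± 1.54 CPM. *Id4* spanned the narrowest range, with a mean of 78.6 CPM in XX 0 h, 75.9 CPM in XY 72 h DMSO and 26.2 CPM in XY 0 h. *Smad7* was the only member whose highest mean was in an XY group.

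Across the 10 group means of log2 CPM, which share libraries and depth, *Id1* and *Msx1* had a Pearson r of 0.978, *Msx1* and *Gata2* 0.961, and *Id1* and *Id2* 0.944. *Id4* had an r between -0.105 and 0.336 with every other member. By the same measure over all tested genes, the 3 nearest to *Id1* were *Tab3* (0.980), *Msx1* and *Lrig1*. Those nearest to *Gata2* were *Gm37653* (0.969), *Fgfr3* and *Msx1*. The nearest to *Id2* were *Gng5c*, *Gm2412* and *Vrk2*, to *Id3* *Dnajc4*, *Fanci* and *Raph1*, and to *Msx1* *Id1*, *Tab3* and *Gde1*. The nearest to *Msx2* were *Zc3hav1l*, *Esrra* and *Tns1*, to *Smad6* *Rhox5*, *Slco5a1* and *Arpc1b*, and to *Smad7* *D630030B08Rik*, *Senp3* and *Bend3*. *Id4* had the loosest neighbours, *Ccnh* (0.878), *Tet2* and *Pin4-ps*.

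Upstream genes of the pathway were read in the same cells. Counts in these lists stand beside 3% of all genes called between the sexes at 0 h, 9.99% after 24 h and 41.0% after 72 h, and 9.12% with MEKi against DMSO after 72 h. Of 10 BMP ligands 4 passed the filter. *Bmp2*, the ligand tied to the ovary, was lower in XY after 24 h (0.691 against 5.86 CPM in XX), and *Bmp4* was higher in XY at that time (36.7 against 5.88 CPM). *Bmp7* was higher in XY after 72 h (38.9 against 7.69 CPM). No ligand was called with MEKi or FGFRi against DMSO at either time.

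Of 7 receptors 6 were tested, and none was called between the sexes at 0 h or 24 h. After 72 h 4 of the 6 were called, beside 41.0% of all genes. Lower in XY were the type II receptors *Bmpr2* (26.2 against 60.7 CPM) and *Acvr2a* (9.37 against 25.4 CPM). The type I receptors *Bmpr1b* (4.44 against 0.129 CPM) and *Acvr1* (10.2 against 3.32 CPM) were higher. *Bmpr1a*, a type I receptor, was higher with MEKi than with FGFRi at 72 h (77.5 against 34.6 CPM, FDR = 0.00102), and against DMSO at 39.7 CPM it was not called (FDR = 0.0585).

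All 4 transducing SMADs were tested. *Smad1* was higher in XY at 0 h (30.8 against 14.1 CPM), and it was higher with MEKi than with DMSO after 72 h (36.3 against 13.1 CPM, log2 1.51 ± 0.22, FDR = 0.00116). *Smad9* was lower in XY after 24 h (0.203 against 4.86 CPM). *Smad5* was lower in XY after 72 h (56.8 against 117 CPM).

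Of 14 antagonists and intracellular brakes 11 were tested. *Ski*, a co-repressor of SMADs, was higher in XY at 0 h (155 against 73.5 CPM), none was called at 24 h, and at 72 h 2 were higher and 2 lower in XY, a share of the 11 close to the 41.0% of all genes. The largest of these was *Tob1*, 9.78 CPM in XY and 45.5 CPM in XX. None was called with either inhibitor. Of 12 further BMP targets 4 were tested. *Gata3* was lower in XY at 0 h (1.14 against 16.7 CPM), at 24 h and at 72 h. *Cdx2* was lower in XY at 0 h (1.01 against 11.5 CPM) and at 24 h, where no XY library held a count. *Hey1* and *Atoh8* were higher in XY at 72 h. None of the 4 was called with an inhibitor.

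The E proteins that ID proteins bind were all tested. *Tcf4* was higher in XY at 24 h (133 against 60.9 CPM) and at 72 h, *Tcf3* was higher in XY at 72 h (134 against 54.4 CPM), and *Tcf12* was lower (106 against 208 CPM). Of the 5 GATA and MSX relatives 3 were tested. *Gata4* and *Gata6*, both expressed in gonadal somatic cells, rose in XX between 24 h and 72 h, *Gata4* from 0.981 to 6.12 CPM, and *Gata3* alone differed by sex.

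All 8 genes of the meiotic and oogenic list were tested. At 0 h 5 were lower in XY (3% of all genes called), after 24 h all 8 (9.99%) and after 72 h 7 (41.0%). With MEKi for 72 h 3 were higher than with DMSO (9.12%). *Stra8* went from 102 to 948 CPM, *Rec8*, a meiotic cohesin, from 36.8 to 142 CPM and *Dmc1*, a recombinase, from 7.06 to 28.3 CPM. Against XX at 72 h, *Stra8* was at 948 CPM in XY MEKi cells and 696 CPM in XX and was not called, 6 genes of the list were lower in XY MEKi cells and *Rec8* was higher. In the same XY MEKi libraries *Id1* and *Id3* were lower than in XX.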

How the data were processed

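Germ cells were sorted by FACS for *Oct4*-eGFP and their poly(A) RNA was primed with an index and a molecular identifier, pooled and sequenced. Per the paper's methods and the authors' code, the authors demultiplexed reads with scPipe, aligned them to GRCm39 with Rsubread, assigned them to exons by strand and counted unique molecules; versions and the annotation release are not given in the sources used here. The values deposited by the authors are raw counts per gene and library. Tests here used R 4.3.3 with filterByExpr (minimum count 10, minimum total 15) and TMM scaling from edgeR 4.0.16, then voom with quality weights and treat against 1.5-fold from limma 3.58.1, over all 40 libraries, with Benjamini-Hochberg adjustment over 15252 genes and a threshold of 0.05. CPM used TMM-scaled library sizes and group mean log2 CPM a prior count of 2. Intervals of count ratios cover counting error only. Alternatives were edgeR and DESeq2 1.42.0 tests, no fold threshold, other scalings, no filter, no quality weights, fewer groups, removal of index carry-over, a replicate block and each library left out. The share for carry-over was the 1st percentile of the count ratio to the partner library, over genes with at least 100 counts there, which genes expressed alike also set. The tests were checked on simulated counts for MEKi against DMSO at 72 h. There limma treat recovered 18% of 100 true 2-fold changes and 95% of 100 true 4-fold changes. A member that was not called may therefore still differ by about 2-fold. Members, lists and tests were chosen with earlier results of these data known. The text names the 10 members, the 3 genes most like each, and list genes called in a comparison. Labels call the 4 libraries of a group biological replicates.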

Additional observations from a re-analysis of the deposited data

Results flagged for a closer look

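Of 90 groups of 4 libraries tested, 6 held a library whose gap to the others, as a share of the group's range, passed Dixon's 95% value, where chance gives about 1 in 20. *Gata2* in XX 72 h DMSO replicate 11 was at 25.16 CPM against 16.17 to 17.4 CPM (0.863), and *Smad7* in XX 72 h DMSO replicate 7 at 2.676 CPM against 4.529 to 4.818 CPM (0.865). *Id1* in XY 72 h MEKi replicate 2 was at 9.926 CPM against 14.15 to 14.5 CPM (0.923). XY 24 h DMSO replicate 2 was high for *Id2*, at 10.37 CPM against 2.751 to 3.787 CPM (0.864), and for *Id3*, at 51.33 CPM against 34.35 to 36.45 CPM (0.876). *Msx2* in XY 24 h FGFRi replicate 3 was at 0.8147 CPM with the others at 0 (1.000), which is a single count.

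The sex difference itself changed with time by the limma interaction test for *Id4* between 0 h and 24 h (log2 1.429) and between 24 h and 72 h (1.276), and for *Msx2* (4.971) and *Gata2* (2.832) between 24 h and 72 h.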

How the results depend on the processing

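No called member reversed under any alternative run. Of 1808 member values under other settings 1678 kept their side of the threshold, 42 lost a call and 88 gained one, and with 1 library left out 1394 of 1440 kept it. Counts of members called moved as follows. With no fold threshold, with or without an observed fold over 1.5, XX 24 h against 0 h gave 3, XY 24 h against 0 h 6, FGFRi against DMSO 1 at 24 h and 1 at 72 h, MEKi against DMSO at 72 h 7, the change of the sex difference from 0 h to 24 h 2 and of the MEKi effect 3, and MEKi against FGFRi 7, or 6 with the observed fold. Of all 15252 genes these fits called, in the same order, 4572, 3780, 966, 164, 6984, 1507, 3536 and 7951. With the observed fold they called 3008, 2330, 630, 86, 4748, 1297, 2889 and 5266. With edgeR, MEKi at 72 h gave 5 and the MEKi effect 1, and with DESeq2 XX 72 h against 24 h gave 5 and the sex difference change 0. All genes called were, in the same order, 1866, 493, 3032 and 77. With no filter, MEKi at 72 h and the sex difference change gave 0, with no quality weights 1 and 0, and with total count scaling the sex difference change gave 0 and the MEKi effect 1. All genes called were 1017 and 76 of 40820 with no filter. They were 1246 and 67 of 15252 with no quality weights, and 57 and 408 of 15252 with total count scaling. With index carry-over removed at the 1st percentile, FGFRi at 72 h gave 2, MEKi at 72 h 6, MEKi against FGFRi 5 and the MEKi effect 2, and at the 0.1th percentile, chosen after seeing the data, 2, 5, 5 and 1. All genes called were 80, 1728, 2447 and 623 of 15326 at the 1st percentile. At the 0.1th percentile they were 5, 1426, 2056 and 256 of 15290. With 1 library left out, XX 72 h against 24 h ranged from 4 to 8, XY 24 h against 0 h from 1 to 4, MEKi at 72 h from 1 to 4 and the sex difference change from 0 to 1. All genes called ranged, in the same order, from 2967 to 3672, 263 to 455, 1140 to 1363 and 44 to 77. The causes were not tested.

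Replicate numbers did not pair the libraries: over 14 comparisons the correlation of same-numbered deviations was -0.09 to 0.123 and none met the rule. With the replicate block, XX 72 h against 24 h gave 1 call, MEKi against DMSO at 72 h 1, XY MEKi against XX at 72 h 2, the sex difference change 0 and the MEKi effect 1. All genes called were, in the same order, 1127, 848, 1697, 50 and 238. XY against XX after 72 h gave 4, beside 3888 genes, with *Id4* (FDR = 0.156) and *Gata2* (0.167) lost. Also lost were *Msx2* between the sexes at 0 h (0.122), *Id3* in XY 24 h against 0 h (0.105), *Id2* in MEKi against FGFRi (0.0537) and the *Id4* sex difference change from 24 h to 72 h (0.0598). Depth limits *Msx1*, *Msx2* and *Gata2* in XY, where the lowest group totals were 5, 1 and 26 counts.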
